A study of Mus musculus with 12 samples.

Results

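Ccl17, Ccl22 and Ccl24 are CC chemokine genes of the type 2 arm of immunity, and their transcripts were measured in myeloid cells sorted from regenerating mouse muscle. They are 3 of the 24421 genes of the count table, and all 3 were among the 12981 genes that passed the filter on low counts. Ccl17 and Ccl22 were selected because their values in these same libraries were higher in Ifngr1 null/null than in wt/null mice. Their difference between the genotypes is therefore given as a description with no test, while Ccl24, which was not chosen on that difference, was tested.

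The cells were live (PI-) CD45+ CD11B+ cells negative for LY6G and SIGLECF, taken from the tibialis anterior on day 5 after injury with notexin, a muscle-damaging snake venom phospholipase. The 4 groups were null/null mice given an anti-TNF neutralizing antibody, null/null mice given an isotype antibody, wt/null mice given anti-TNF, and wt/null mice given isotype, with 3 libraries each and 12 in all. Antibodies were injected intraperitoneally every day after injury. All mice therefore carried at least 1 null allele of Ifngr1, the ligand-binding chain of the interferon gamma receptor, and no wild-type group was analysed here. The labels give neither age nor sex, and they do not say whether each library came from a separate mouse, so p-values measure the spread between these libraries, which may be technical.

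CCL17 and CCL22 are ligands of the receptor CCR4, which is carried by type 2 helper and regulatory T cells, and CCL24 is an eotaxin that acts through CCR3 on eosinophils. In mouse macrophages, IL-4 and IL-13 signal through the IL-4 receptor and STAT6 and raise all of them, while interferon gamma is known to oppose many IL-4 responses. Dendritic cells, above all mature ones, are another well-known source of CCL17 and CCL22.

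Libraries held 23.2 to 29.9 M counts. Ifngr1 had 83.3 to 119 CPM, the TMM-scaled count of a gene per M (mega) counts of its library, in the 6 null/null libraries and 226 to 250 CPM in the 6 wt/null libraries, and these ranges did not overlap. Markers of monocytes and macrophages summed to between 27625 and 33859 CPM. Of the cells the gate was meant to remove, neutrophil markers summed to 44.1 CPM in null/null isotype replicate 1 and to 1.70 to 6.44 CPM in the other 11 libraries, and eosinophil markers summed to 6.48 to 13.05 CPM, with the eosinophil peroxidase gene Epx at 0 counts in all 12 libraries. Cd3e, a T cell receptor gene, had 0 to 19 counts per library. Anti-TNF replicate 2 of wt/null and anti-TNF replicate 1 of null/null stood apart: they lay at 54.2 and 45.9 on the first principal component, against -20.8 to -3.47 for the other 10 libraries. Flt3, a receptor of dendritic cells and their precursors, was at 87.3 and 89.3 CPM in them, against 20.4 to 32.1 CPM in the other 10. Both were anti-TNF libraries, so antibody values averaged over the genotypes are given with and without them where they moved.

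Ccl22 and Ccl17 are neighbours on chromosome 8 of GRCm38 (mm10), both on the plus strand, with Ccl22 at 94745684 to 94751388 and Ccl17 at 94809380 to 94812038. The 57.991 kb between them held 1 protein-coding gene, Cx3cl1, which encodes fractalkine. Ccl24 is on the minus strand of chromosome 5, at 135569935 to 135573123. The 250 bases before the RefSeq start of Ccl22 and of Ccl17 (GRCm38.p6, plus strand) are printed because these neighbouring genes were the pair chosen for the same direction. Capitals mark matches to a motif, and Ccl24 is named only. The RefSeq start used for Ccl17 lies inside the gene's annotated span.
Ccl22 promoter, chr8:94745434-94745683: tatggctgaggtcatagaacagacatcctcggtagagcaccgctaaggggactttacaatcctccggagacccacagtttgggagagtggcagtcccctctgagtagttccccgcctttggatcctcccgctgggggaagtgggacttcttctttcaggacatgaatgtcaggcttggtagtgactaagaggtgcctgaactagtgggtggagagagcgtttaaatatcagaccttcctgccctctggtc
Ccl17 promoter, chr8:94810203-94810452: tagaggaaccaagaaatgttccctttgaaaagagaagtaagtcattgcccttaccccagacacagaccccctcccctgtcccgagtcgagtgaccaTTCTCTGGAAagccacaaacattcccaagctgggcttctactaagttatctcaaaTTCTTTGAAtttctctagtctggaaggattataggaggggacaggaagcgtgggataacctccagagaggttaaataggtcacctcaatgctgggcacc

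In these windows 7 motifs were searched on both strands. The Ccl17 window held a STAT6-type match, TTCNNNNGAA, starting 154 bases before the start, and a match to the interferon gamma activated site, TTCNNNGAA, starting 99 bases before it. The 2 matches did not overlap; both patterns are palindromes, so a match on either strand was counted once. Among 32851 RefSeq promoter windows of the same 250 bases, 5.85% held the STAT6-type motif and 7.02% held the other. The Ccl22 window matched none of the 7. The motifs with no match in either window were kappaB (in 7.25% of promoters), the interferon-stimulated response element GAAANNGAAA (2.98%), the PU.1-IRF composite GGAANNGAAA (2.3%), AP-1 TGANTCA (6.75%) and TATAAA (12.4%). A match is a run of letters and not a measured binding site.

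All 3 chemokines were detected in every library, at low to middling levels for these cells. Counts per library were 12 to 154 for Ccl17, 412 to 1227 for Ccl22 and 200 to 423 for Ccl24. Per kb of exon, Ccl22 had 13.5 ± 3.06 CPM in null/null and 9.70 ± 2.31 CPM in wt/null libraries (SD, n = 6 each). Ccl24 had 9.20 ± 2.12 CPM per kb in null/null and 7.24 ± 0.743 CPM per kb in wt/null libraries (SD, n = 6 each). Ccl17 was the lowest of the 3, with 6.98 ± 2.85 CPM per kb in null/null and 2.61 ± 1.18 CPM per kb in wt/null libraries (SD, n = 6 each). In null/null, Ccl24 and Ccl17 differed by less than the SD of Ccl17, and Ccl22 lay above both by more than its own SD. In wt/null, each gene lay above the next by more than either SD. The ratio of Ccl22 to Ccl17 per kb was 0.938 to 3.84 in null/null libraries and 2.31 to 8.81 in wt/null libraries, and the ranges overlapped.

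Ccl17, a CCR4 ligand, had 1.67, 3.54 and 5.84 CPM in the null/null anti-TNF libraries and 3.70, 2.43 and 4.36 CPM in the null/null isotype libraries. In wt/null mice it had 1.56, 0.778 and 1.59 CPM with anti-TNF and 1.79, 1.92 and 0.416 CPM with isotype. The lowest null/null library, one of those that stood apart, lay inside the wt/null range, whose highest value was 1.92 CPM. Without the 2 libraries that stood apart the lowest null/null value was 2.43 CPM and the genotypes did not overlap. Ccl17 was chosen for this direction, and the share of all genes with no overlap was not computed, so this is a description only. The lowest library of all held 12 Ccl17 counts, for which the exact 95% Poisson interval was 0.215 to 0.726 CPM and covers counting error only.

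Ccl22, the other CCR4 ligand, had 27.6, 24.8 and 23.6 CPM in null/null anti-TNF and 31.6, 29.5 and 42.4 CPM in null/null isotype libraries. It had 19.7, 29.6 and 22.9 CPM in wt/null anti-TNF and 23.4, 19.2 and 14.3 CPM in wt/null isotype libraries. The genotypes did not overlap among isotype libraries, and they overlapped among anti-TNF libraries. The highest wt/null value, 29.6 CPM, was in the wt/null library that stood apart; without the 2 libraries that stood apart the anti-TNF libraries lay at 23.6 and 24.8 CPM in null/null and at 19.7 and 22.9 CPM in wt/null, with no overlap. Within null/null, the 3 anti-TNF libraries all lay below the 3 isotype libraries. Ccl22 was chosen for its genotype direction, and the share of all genes whose groups separate in these ways was not computed. With so few libraries per group, nothing is read from the lack of overlap.

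Ccl24, the CCR3 ligand, had 7.61, 14.2 and 13.6 CPM in null/null anti-TNF and 9.93, 11.6 and 14.6 CPM in null/null isotype libraries. In wt/null mice it had 10.4, 8.60 and 8.62 CPM with anti-TNF and 9.37, 8.55 and 10.7 CPM with isotype. The lowest value of all, 7.61 CPM, was in the null/null library that stood apart, which was also the lowest null/null library for Ccl17. The genotypes overlapped with and without the 2 libraries.

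**Figure D1:**
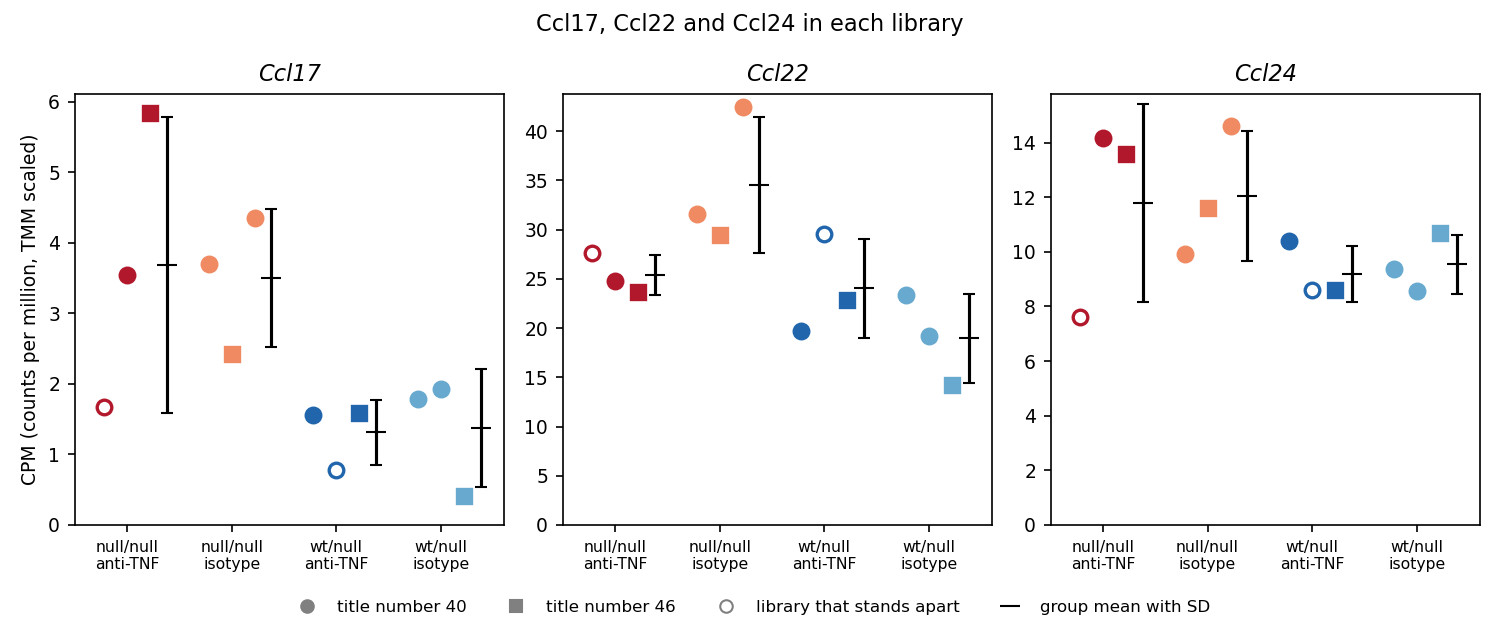
Level of each chemokine in each of the 12 libraries, in CPM with TMM scaling, by group; squares are libraries whose titles begin with 46, circles those that begin with 40, open circles the 2 libraries that stood apart, and the line with a bar is the group mean ± SD (n = 3). Ccl17 lies at 1.67 to 5.84 CPM in null/null and 0.416 to 1.92 CPM in wt/null libraries. For Ccl22, the 3 null/null isotype libraries lie at 29.5 to 42.4 CPM, against 14.3 to 23.4 CPM in the wt/null isotype libraries. The anti-TNF libraries overlap for Ccl22, at 23.6 to 27.6 CPM in null/null and 19.7 to 29.6 CPM in wt/null. Ccl17 and Ccl22 were chosen for higher values in null/null, so these are descriptions with no test.

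By genotype, Ccl17 averaged 3.59 ± 1.46 CPM in null/null and 1.34 ± 0.604 CPM in wt/null libraries (SD, n = 6 each). Averaged over the antibodies, the fitted log2 fold change was 1.42 ± 0.39 (SE), or 2.68-fold, which ranked 4th from the top of the 12981 genes tested. It was 1.48 ± 0.55 under anti-TNF and 1.36 ± 0.55 under isotype. Ccl22 averaged 29.9 ± 6.78 CPM in null/null and 21.5 ± 5.12 CPM in wt/null libraries (SD, n = 6 each), a log2 fold change of 0.47 ± 0.14 (SE), or 1.39-fold, at rank 176. For Ccl22 the estimate was 0.08 ± 0.20 under anti-TNF and 0.87 ± 0.20 under isotype. With single libraries left out, the Ccl22 estimate under anti-TNF ran from -0.047 (without wt/null replicate 1) to 0.25 (without wt/null replicate 2); it was 0.012 and 0.13 without null/null replicates 1 and 3, 0.044 without wt/null replicate 3, and 0.19 without both libraries that stood apart; under isotype it ran from 0.69 to 1.05. In this genotype comparison edgeR called 1 of all genes tested, Ifngr1 itself, at a Benjamini-Hochberg adjusted p below 0.05, so percent called was 0.0077%, and it was 0.0077% under each antibody as well. These values for Ccl17 and Ccl22 chose the members, and nothing is read from them. In bulk RNA, fewer cells of a type and less RNA per cell cannot be told apart.

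The Ccl24 difference between the genotypes did not pass the test. Ccl24 averaged 11.9 ± 2.75 CPM in null/null and 9.37 ± 0.962 CPM in wt/null libraries (SD, n = 6 each), 1.27-fold apart. The log2 fold change was 0.35 ± 0.16 (SE; 95% interval 0.01 to 0.68), at rank 353, with an unadjusted p of 0.0454 and an adjusted p of 0.9996 by edgeR's quasi-likelihood test. The exact two-sided permutation test of genotype within antibody gave p = 0.095, or 0.38 after Benjamini-Hochberg adjustment over the 4 permutation tests run; the smallest p it allows is 0.005. Without null/null anti-TNF replicate 1 the exact permutation p was 0.015, and without both libraries that stood apart it was 0.0333. In the alternative fits (edgeR, DESeq2 and limma voom) the adjusted p was at least 0.942, with log2 fold changes between 0.26 and 0.46. Under anti-TNF the Ccl24 log2 fold change was 0.36 ± 0.22 (edgeR adjusted p = 0.9997), and under isotype it was 0.34 ± 0.22 (edgeR adjusted p = 0.9998).

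Averaged over the genotypes, none of the 3 chemokines passed the test between anti-TNF and isotype. Ccl17 averaged 2.50 ± 1.88 CPM with anti-TNF and 2.44 ± 1.42 CPM with isotype (SD, n = 6 each). Ccl22 averaged 24.7 ± 3.51 CPM with anti-TNF and 26.7 ± 10.0 CPM with isotype, and Ccl24 averaged 10.5 ± 2.77 CPM with anti-TNF and 10.8 ± 2.15 CPM with isotype (SD, n = 6 each). Averaged over the genotypes, the log2 fold change for Ccl17 was 0.01 ± 0.39 (SE), with a 95% interval from -0.84 to 0.86 and an edgeR adjusted p of 0.994. The interval leaves room for a change of 1.81-fold upward or to 0.561 of the isotype level. For Ccl22 it was -0.05 ± 0.14 (interval -0.35 to 0.25, edgeR adjusted p = 0.921), and for Ccl24 -0.04 ± 0.16 (interval -0.38 to 0.29, edgeR adjusted p = 0.938). Without the 2 libraries that stood apart, the estimate was 0.32 ± 0.35 for Ccl17 and -0.17 ± 0.14 for Ccl22 (edgeR adjusted p = 0.9996 for both). For Ccl24 it was then 0.10. Over all 12 libraries, exact permutation of the antibody within genotype gave p = 0.95 for Ccl17, 0.865 for Ccl22 and 0.75 for Ccl24. edgeR called 0 of 12981 genes for the antibody, so percent called was 0%; 949 genes had an unadjusted p below 0.05, DESeq2 called 6 with the adjusted p of 9563 genes not given, and limma voom called 0.

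Within each genotype, the anti-TNF over isotype estimate for Ccl17 was 0.07 ± 0.52 on the log2 scale in null/null and -0.05 ± 0.57 in wt/null, and with single libraries left out it ran from -0.42 to 0.42 and from -0.50 to 0.27. Ccl22 had a negative estimate in null/null, -0.45 ± 0.20, and a positive one in wt/null, 0.34 ± 0.20. The null/null estimate for Ccl22 was -0.27 without isotype replicate 3, and the wt/null estimate was 0.17 without anti-TNF replicate 2, which stood apart, and also 0.17 without isotype replicate 3 and 0.52 without isotype replicate 1. The difference between these, -0.79 ± 0.28 for Ccl22 and 0.13 ± 0.77 for Ccl17, is a description with no test. Without the 2 libraries that stood apart the Ccl22 difference was -0.68 ± 0.28. For Ccl24 the antibody estimate was -0.03 ± 0.22 in null/null (edgeR adjusted p = 0.990) and -0.05 ± 0.22 in wt/null (edgeR adjusted p = 0.973), and the interaction was 0.02 ± 0.31 (edgeR adjusted p = 0.9998). Over all genes, percent called by edgeR was 0% for the antibody in null/null, in wt/null and for the interaction, with 452, 581 and 196 genes at an unadjusted p below 0.05, and 0 by DESeq2 and by limma voom in each.

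**Figure D2:**
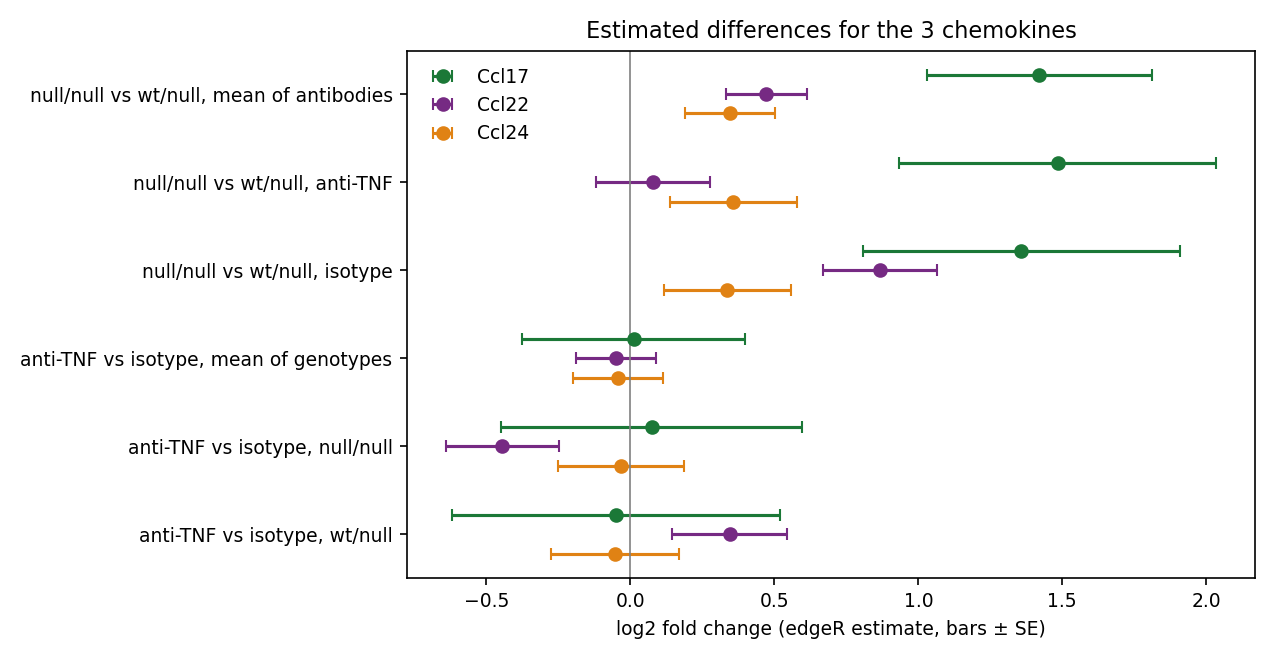
Log2 fold changes fitted by edgeR for Ccl17, Ccl22 and Ccl24 in 6 comparisons, with bars of ± SE. Ccl17 is highest in all 3 genotype comparisons, at 1.36 to 1.48, while the Ccl22 estimate is 0.08 under anti-TNF and 0.87 under isotype. Both genes were chosen for higher values in null/null, so these genotype values are a description with no test.

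The titles of the libraries begin with 40 or 46, a number whose meaning is not given, with 1 title of 46 in each group. In the 46 libraries, Ccl17 was at 5.84 CPM with anti-TNF and 2.43 CPM with isotype in null/null, and at 1.59 CPM with anti-TNF and 0.416 CPM with isotype in wt/null. In the 8 libraries of 40 alone the log2 genotype estimate was 1.13 ± 0.32 for Ccl17, 0.45 ± 0.16 for Ccl22 and 0.33 ± 0.22 for Ccl24. The log2 antibody estimate for Ccl17 in those libraries was -0.64 ± 0.32 (edgeR adjusted p = 0.474), the opposite sign to that over all 12. With single libraries left out of all 12, the Ccl17 antibody estimate moved between -0.24 and 0.19. It was 0.32 without the 2 libraries that stood apart.

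All 3 chemokines scattered more between libraries than the median gene, whose biological coefficient of variation was 0.142. For Ccl17 the biological coefficient of variation was 0.449, higher than for 94.6% of the genes tested; Ccl22 was at 0.175, higher than for 62.8% of the genes, and Ccl24 at 0.196, higher than for 67.9%. The common value was 0.179.

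The receptors for these ligands were scarce in the sorted cells. The gate kept CD11B+ cells and removed SIGLECF+ cells, so receptors on cells outside it, such as eosinophils, were not measured. Ccr4 had 5 counts over all 12 libraries, 0 to 2 in each, and 0 in 8 of them. Ccr3 had 1.80 ± 1.09 CPM in null/null and 1.73 ± 0.555 CPM in wt/null libraries (SD, n = 6 each), a log2 fold change of 0.06 ± 0.38 (edgeR adjusted p = 0.9996). Ackr2, which encodes a decoy receptor that scavenges CCL17 and CCL22, had 0 to 7 counts. Dpp4, a surface protease that trims the N terminus of CCL22, had 32.5 ± 22.1 CPM with anti-TNF and 14.7 ± 2.201 CPM with isotype (SD, n = 6 each), a log2 fold change of 1.15 ± 0.40 (edgeR adjusted p = 0.660). Its highest values, 58.5 and 63.2 CPM, were in the 2 libraries that stood apart; without them Dpp4 had 18.4 ± 2.68 CPM with anti-TNF (SD, n = 4).

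The signalling genes upstream of these chemokines gave no call. Over all genes tested, edgeR called 0.0077% for genotype and 0% for the antibody. Of all estimates, 50.1% were above 0 for genotype and 51.6% for the antibody. These shares stand beside the counts of every list below. Of the 20 genes listed for type 2 and GM-CSF signalling, 17 were tested, and Il4, Il13 and Csf2 were too low; Il4 had 0 to 4 counts and Il13 0 to 1 count per library. For genotype, 12 estimates were above 0 and 5 below, with a median log2 fold change of 0.06, beside 0.00 over all genes tested. Jak3, the kinase bound to the common gamma chain, was at 63.3 ± 9.99 CPM in null/null and 53.7 ± 4.05 CPM in wt/null libraries (SD, n = 6 each; edgeR adjusted p = 0.9996). Kdm6b, a histone demethylase induced by IL-4, was at 109 ± 29.0 CPM in null/null and 92.6 ± 33.4 CPM in wt/null libraries (SD, n = 6 each; edgeR adjusted p = 0.9996). For the antibody 14 estimates were above 0 and 3 below, with a median of 0.10. Irf4, a transcription factor of alternatively activated macrophages and dendritic cells, was at 21.7 ± 6.18 CPM with anti-TNF and 15.0 ± 2.87 CPM with isotype (SD, n = 6 each; edgeR adjusted p = 0.660). Il33, an alarmin, was at 1.87 ± 1.19 CPM with anti-TNF and 1.15 ± 0.336 CPM with isotype (SD, n = 6 each; edgeR adjusted p = 0.665). In the 10 libraries left without those that stood apart, the antibody estimates were 7 above 0 and 10 below, with a median of -0.01, and with anti-TNF Irf4 was at 18.3 ± 3.40 CPM and Il33 at 1.13 ± 0.319 CPM (SD, n = 4 each).

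Of 18 genes listed for alternative activation, 17 were tested and 0 were called in either comparison, beside 0.0077% and 0% of all genes tested. For genotype, 11 estimates were above 0 and 6 below, with a median of 0.07, and for the antibody 12 were above 0 and 5 below, with a median of 0.32. Cdh1, the IL-4-induced cadherin of macrophages, was at 2.24 ± 0.956 CPM in null/null and 1.43 ± 0.539 CPM in wt/null libraries (SD, n = 6 each; edgeR adjusted p = 0.9996). Ch25h, an enzyme that makes an oxysterol, was at 4.48 ± 1.01 CPM in null/null and 6.67 ± 2.75 CPM in wt/null libraries (SD, n = 6 each; edgeR adjusted p = 0.9996). Flt1, a receptor for vascular endothelial growth factor, had 4.96 ± 2.80 CPM with anti-TNF and 3.46 ± 0.583 CPM with isotype (SD, n = 6 each; edgeR adjusted p = 0.665). Flt1 without the libraries that stood apart was at 3.39 ± 0.449 CPM with anti-TNF (SD, n = 4), and the antibody median of this list was 0.02.

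The 8 genes listed as inducible by interferon gamma all had lower estimates in null/null, with a median log2 fold change of -0.68; 4 of 8 had an unadjusted p below 0.05, beside 319 of the 12981 genes tested, and 0 were called. The furthest were Cxcl9, a CXCR3 ligand, at 4.12 ± 1.12 CPM in null/null and 36.3 ± 41.6 CPM in wt/null libraries, and Iigp1, an immunity-related GTPase, at 9.69 ± 4.41 CPM in null/null and 48.5 ± 48.6 CPM in wt/null libraries (SD, n = 6 each; edgeR adjusted p = 0.9996 for both). For the antibody all 8 estimates were above 0, with a median of 0.37 and 0 called; without the 2 libraries that stood apart 3 were above 0 and 5 below, with a median of -0.12, and the genotype median was -0.45 with 7 of 8 below 0.

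Among the other chemokine genes, 24 of 36 in the table were tested and 0 were called. For genotype, 11 estimates were above 0 and 13 below, with a median log2 fold change of -0.03. Cxcl3, a neutrophil attractant, had the highest of them, 0.93 ± 0.45 (edgeR adjusted p = 0.9996), and Cxcl9 the lowest, -3.07 ± 0.62 (edgeR adjusted p = 0.9996). Without the 2 libraries that stood apart, Cxcl3 was at 0.59 ± 0.49 and Cxcl9 at -2.22 ± 0.35. For the antibody, 20 estimates were above 0 and 4 below, with a median of 0.27. The furthest was Xcl1, the ligand of XCR1, at 2.68 ± 1.20 (edgeR adjusted p = 0.660). Xcl1 had 1.10 ± 1.63 CPM with anti-TNF and 0.153 ± 0.182 CPM with isotype (SD, n = 6 each). Without the 2 libraries that stood apart it had 0.180 ± 0.129 CPM with anti-TNF (SD, n = 4) and was too low to be tested. When the libraries that stood apart were left out, 23 were tested: for genotype 17 estimates were above 0 and 6 below, with a median of 0.09, and for the antibody 13 were above 0 and 10 below, with a median of 0.04.

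**Figure D3:**
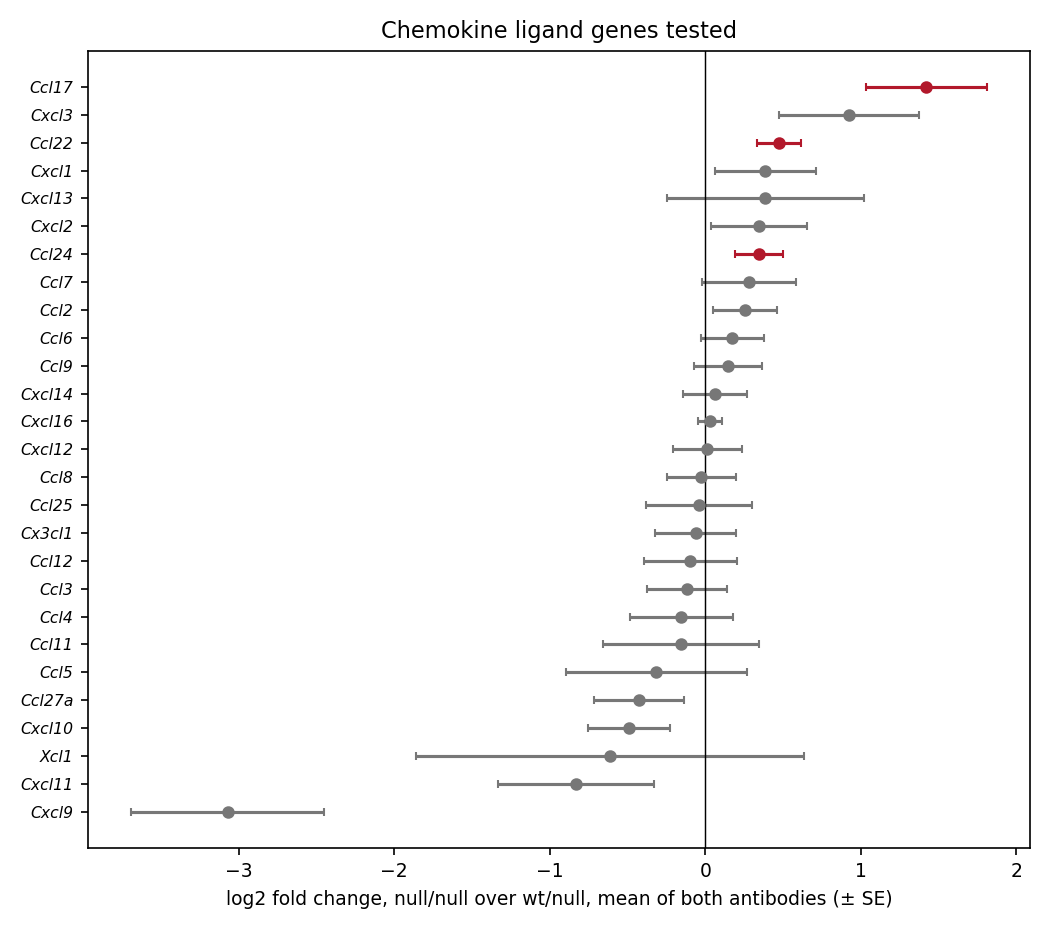
Genotype log2 fold change, null/null over wt/null and averaged over the antibodies, for the 27 chemokine ligand genes tested, with bars of ± SE; Ccl17, Ccl22 and Ccl24 are in red. Ccl17 at 1.42 stands at the top and Cxcl9 at -3.07 at the bottom. Ccl17 and Ccl22 were chosen for higher values in null/null, so nothing is read from their places. Without the 2 libraries that stood apart Cxcl9 was at -2.22.

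The protein-coding genes around the 3 chemokines showed small genotype estimates. Cx3cl1, between Ccl22 and Ccl17, was at 1.07 to 2.61 CPM, with a log2 fold change of -0.06 ± 0.26 (edgeR adjusted p = 0.9996). Beyond the pair, Ciapin1 at 0.02 ± 0.09, Coq9 at -0.02 ± 0.10, Polr2c at 0.02 ± 0.07, Arl2bp at -0.07 ± 0.08 and Rspry1 at -0.04 ± 0.09 were all within 0.1 of 0. Around Ccl24, Hip1 was at 0.11 ± 0.08, Pom121 at 0.02 ± 0.07, Rhbdd2 at 0.10 ± 0.11, Por at 0.11 ± 0.09 and Tmem120a at 0.01 ± 0.08. Ccl26, another eotaxin gene and the nearest neighbour of Ccl24, had 0 to 1 count per library, and Pllp, next to Ccl22, had 0 to 2. edgeR adjusted p was 0.9996 for each neighbour tested. Ciapin1 and Coq9 overlap in the annotation, and reads in the overlap could have been counted for either.

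**Figure D4:**
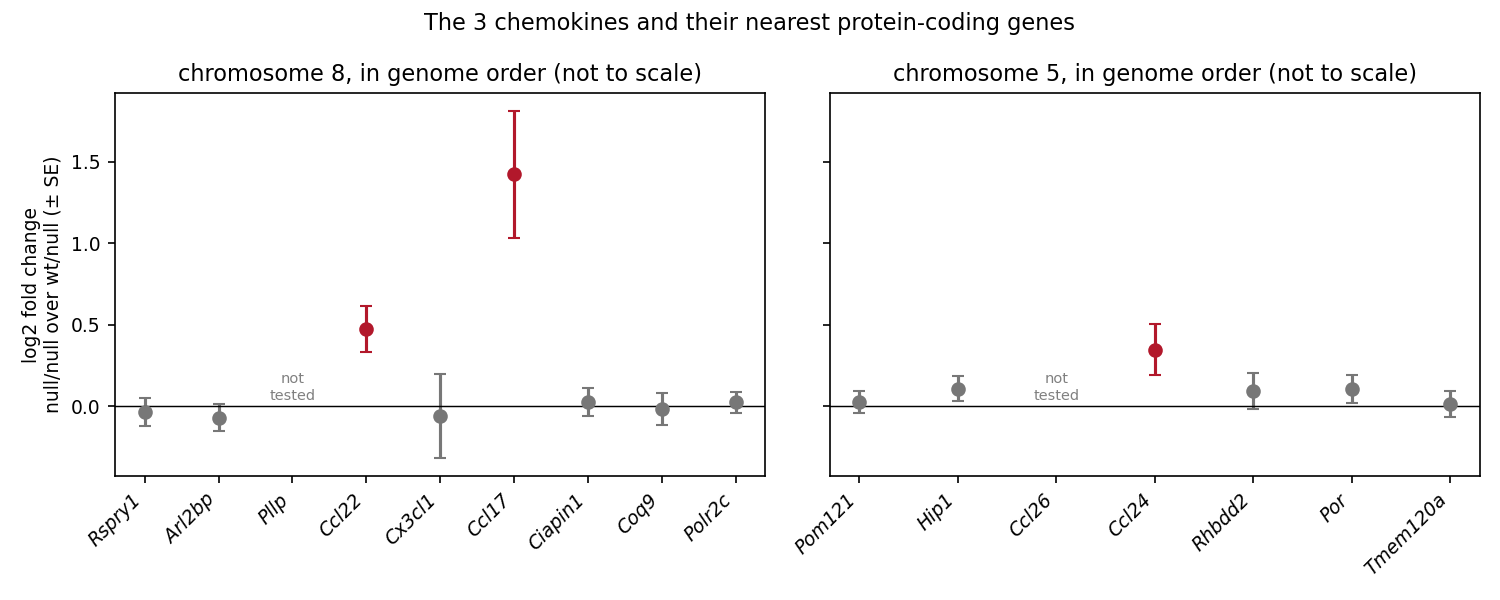
Genotype log2 fold change, null/null over wt/null, of Ccl22, Ccl17 and Ccl24 (red) and of their nearest protein-coding genes (grey) in genome order, with bars of ± SE; the horizontal axis is not to scale. The tested neighbours lie between -0.07 and 0.11, below the 0.35 of Ccl24.

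Marker sums of the cell types that could also carry these transcripts were set beside them. The 12 mature dendritic cell genes summed to between 702 and 912 CPM in null/null anti-TNF, 634 and 909 CPM in null/null isotype, 670 and 1199 CPM in wt/null anti-TNF, and 536 and 662 CPM in wt/null isotype libraries, and Cd83 made up 69.2% of the sum. The highest sums, 1199 and 912 CPM, were in the 2 libraries that stood apart, but null/null isotype replicate 2, which did not, was close to the second at 909 CPM. None of these genes was at 0 in all libraries. For genotype, 10 of the 12 estimates were above 0, with a median log2 fold change of 0.09, and 0 were called. Ccr7, the receptor that guides mature dendritic cells, had an estimate of 0.33 ± 0.40 and Mreg one of 0.33 ± 0.42 (edgeR adjusted p = 0.9996 for both). For the antibody 11 of the 12 were above 0, with a median of 0.64 and 0 called; Il12b, a subunit of IL-12, was at 0.93 ± 0.33 and Nudt17 at 0.90 ± 0.48 (edgeR adjusted p = 0.660 and 0.661). When the libraries that stood apart were left out, 3 of the 12 antibody estimates were above 0, with a median of -0.04. Il12b was then at 0.35 ± 0.20 and Nudt17 at -0.03 ± 0.32 (edgeR adjusted p = 0.9996 for both).

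The 8 conventional dendritic cell genes summed to between 1078 and 1604 CPM, of which the integrin gene Itgax made 77.1%. For genotype 4 estimates were above 0 and 4 below, with a median of 0.00 and 0 called; Clec9a, a receptor for dead cells, was at -0.84 ± 0.55 and Xcr1 at -0.24 ± 0.56 (edgeR adjusted p = 0.9996 for both). For the antibody 7 were above 0, with a median of 0.67 and 0 called; Clec9a was at 1.38 ± 0.55 and Flt3 at 1.03 ± 0.36 (edgeR adjusted p = 0.660 for both). In the other 10 libraries, without those that stood apart, the antibody median was 0.30. Clec9a was then at 0.64 ± 0.48 and Flt3 at 0.31 ± 0.10 (edgeR adjusted p = 0.9996 for both).

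The 13 resident-type macrophage genes summed to between 1180 and 2116 CPM. For genotype 11 had estimates above 0, with a median of 0.24 and 0 called; the lectin genes Cd209f and Cd209d were at 0.78 ± 0.37 and 0.70 ± 0.24 (edgeR adjusted p = 0.9996 for both). For the antibody 6 were above 0 and 7 below, with a median of -0.07; Cd209d was at 0.80 ± 0.24 and Timd4, a receptor for phosphatidylserine, at 0.70 ± 0.37 (edgeR adjusted p = 0.660 and 0.661). The genotype median was 0.15 without the libraries that stood apart. The part of these cells in the chemokine levels was not tested.

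Once the group means were removed, no relation among the 3 chemokines passed the test. Across the 12 libraries, Pearson's r of the deviations in log2 CPM was 0.24 for Ccl17 with Ccl22 (Spearman's rho 0.25), 0.31 for Ccl17 with Ccl24 (rho 0.25) and -0.19 for Ccl22 with Ccl24 (rho -0.14). Exact permutation within groups gave p = 0.587, 0.458 and 0.475 for r and p = 0.552, 0.542 and 0.644 for rho, and after Benjamini-Hochberg adjustment over 12 relations each p for r was 0.806 and each p for rho 0.841. Without the 2 libraries farthest from the median of the first gene, r was -0.01, 0.24 and -0.17 in the same order. Without the 2 libraries that stood apart, r was instead 0.77, -0.31 and 0.074. For Ccl17 with Ccl22 the lowest adjusted exact permutation p in any alternative setting was 0.542.

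Within groups, Ccl17 was lower where the mature dendritic cell sum was higher, a relation whose call depended on the setting. Their deviations had r = -0.69 (exact permutation p = 0.00386, adjusted p = 0.0463 over the 12 relations) and rho = -0.63 (exact permutation p = 0.0123, adjusted p = 0.148). Leaving out the 2 libraries farthest from the median gave r = -0.78 when chosen on Ccl17 and r = -0.71 when chosen on the list. The sign held in every setting, with r from -0.79 to -0.61, but the call was lost in 12 of 15 alternative settings. Without the 2 libraries that stood apart the adjusted exact permutation p was 0.542. Leaving out libraries leaves fewer arrangements, which raises the smallest p the test allows. Nothing is therefore read from calls lost in that way. With all 12 libraries and the mean log2 CPM of the 12 genes in place of the sum, the adjusted exact permutation p was 0.231. The other 8 relations of the chemokines with the mature dendritic, conventional dendritic and resident-type macrophage sums had r between -0.23 and 0.36, each with an exact permutation p of 0.806 after adjustment.

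**Figure D5:**
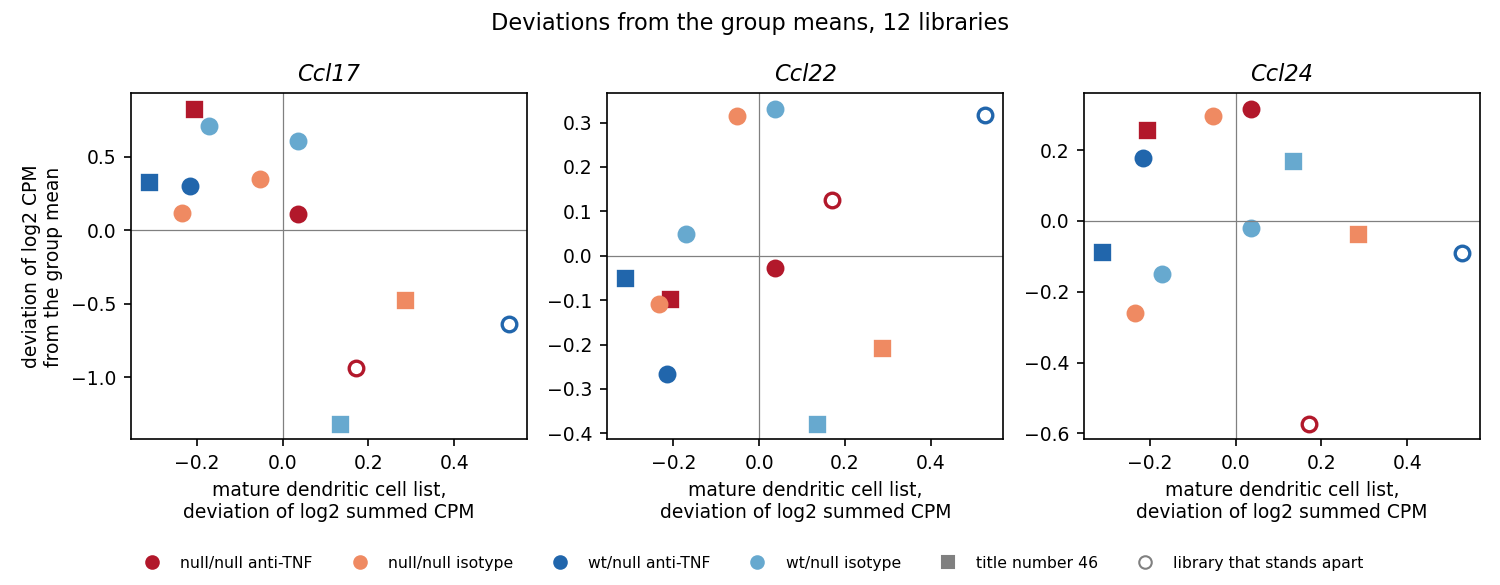
Deviation of each chemokine's log2 CPM from its group mean against that of the summed CPM of 12 mature dendritic cell genes, in the 12 libraries; open circles are the 2 libraries that stood apart and squares the libraries whose titles begin with 46. The 4 libraries lowest for Ccl17 relative to their group lie to the right of 0 (r = -0.69), and the points for Ccl22 and Ccl24 show no such slope (r = 0.29 and -0.16).

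The search for like genes left out the chemokines themselves, placeholder symbols (Gm and Rik) and genes with a mean log2 CPM below 0. The genes whose log2 CPM followed each chemokine most closely across the 12 libraries were taken from the 11176 tested genes left. For Ccl17 these were Asb8, a SOCS box gene (r = 0.84), Ocel1 (0.83), Ccdc134 (0.79), Rab11fip3, which encodes a Rab11-binding protein of endosomes (0.77), and Mgl2, a galactose-binding lectin of alternatively activated macrophages and dendritic cells (0.77). Mgl2 was at 73.0 ± 18.5 CPM in null/null and 55.9 ± 17.0 CPM in wt/null libraries (SD, n = 6 each, edgeR adjusted p = 0.9996). It was named here for following Ccl17, which was chosen on the genotype difference, so nothing is read from these levels. For Ccl22 they were Wdr8 (0.85), Cog1, a Golgi tethering subunit (0.83), Isy1, a splicing factor (0.81), Gas8 (0.78) and Ghdc (0.77). For Ccl24 they were Snai1, a zinc finger repressor (0.88), Klhl21, a ubiquitin ligase adaptor (0.86), Zfp523 (0.86), Gfra2, a neurturin co-receptor (0.86), and Mipep, a mitochondrial peptidase (0.85). With so many genes and 12 libraries these are a ranking with no test. Without the 2 libraries that stood apart, the genes left among the 5 most alike were Ocel1 for Ccl17, Gas8 for Ccl22, and Snai1 and Zfp523 for Ccl24.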

How the data were processed

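Messenger RNA was sequenced from 12 libraries in 4 groups of 3, set by the genotype and treatment labels. The authors deposited whole-number read counts per gene symbol, not normalized, with 23.2 to 29.9 M counts per library. The submitters' processing notes name bcl2fastq 2.20, STAR, Bowtie and the build mm10; the counting tool, annotation and strand setting are not given in the sources used here.

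Low-count genes were removed with filterByExpr, counts were TMM-scaled, and 4 group means were fitted by the robust quasi-likelihood method of edgeR 4.0.16 (R 4.3.3). All tests were two-sided, with Benjamini-Hochberg adjustment over all 12981 genes and a threshold of 0.05. Log2 CPM used a prior count of 2. Levels per kb used union exon lengths of a mouse gene annotation on the same build. Single values were also tested by exact permutation over libraries. The alternatives were DESeq2 1.42.0, limma 3.58.1 (voom), other scaling and filters, the title number, and leaving out libraries; for the gene lists, leaving out the 2 libraries that stood apart was chosen after seeing the data. All list genes (134 in 14 lists) were in the table.

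The members and lists were chosen with earlier results of these data known. The genes named were the members, all receptor-list genes, up to 4 called genes of each other list or otherwise up to 2 with the largest absolute estimate, the 5 most alike, and the 3 nearest protein-coding genes on each side. Lists of other cell types were checks, of which sums or few genes were printed, and 1 gene that the rule names is not reported here. Replicates were numbered in listing order, and none were identical.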

Additional observations from a re-analysis of the deposited data

How the results depend on the processing

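The Ccl24 genotype estimate stayed positive in all 20 alternatives (0.26 to 0.46 on the log2 scale), and none passed the adjusted threshold. Its exact permutation difference of 0.31 ranged from 0.24 to 0.46 as single libraries were left out. It was 0.44 without both libraries that stood apart, where the permutation p was below 0.05 unadjusted. No adjusted permutation p was computed for these alternatives, unlike the main permutation test. The Ccl17 and Ccl22 genotype estimates were 1.13 to 1.596 and 0.38 to 0.56. Antibody estimates near 0 changed sign: Ccl17 was -0.64 in the libraries titled 40 and -0.24 to 0.19 with single libraries left out (-0.30 to 0.26 for the exact test), and Ccl22 was -0.14 to 0.039 (exact -0.13 to 0.044). Without the libraries that stood apart, Ccl17 was at 0.32 (exact 0.42) and Ccl22 at -0.17 (exact -0.15). Ccl24 was 0.013 with voom, 0.10 without the libraries that stood apart (exact 0.11) and -0.12 to 0.074 with single libraries left out (exact -0.14 to 0.084). For Ccl24 in null/null it was 0.024, 0.20 and -0.19 to 0.20 in the same order; in wt/null it was 0.0015 with voom, 0.082 in libraries titled 40 and -0.15 to 0.035 with single libraries left out; the interaction was -0.26 in libraries titled 40 and -0.13 to 0.25. DESeq2 called 6 genes for the antibody and 4 for genotype, and libraries titled 40 gave 1 for the antibody. Without the libraries that stood apart, r was 0.77 for Ccl17 with Ccl22, -0.31 for Ccl17 with Ccl24 and 0.074 for Ccl22 with Ccl24. Without those libraries, r with the mature dendritic list was -0.65, -0.32 and 0.44 for Ccl17, Ccl22 and Ccl24. With the conventional dendritic list it was then -0.083 for Ccl17 and -0.41 for Ccl24. With the mean log2 CPM of a list, chosen after seeing the data, r was -0.61 for Ccl17 with the mature list, -0.54, 0.15 and -0.44 for Ccl17, Ccl22 and Ccl24 with the conventional list, and -0.062 for Ccl22 with the resident list. With single libraries left out, r ranged from -0.32 to 0.51 for Ccl17 with Ccl22, -0.19 to 0.71 for Ccl17 with Ccl24, -0.50 to -0.05 for Ccl22 with Ccl24, -0.79 to -0.65 for Ccl17, -0.19 to 0.51 for Ccl22 and -0.33 to 0.076 for Ccl24 with the mature list, 0.01 to 0.38, -0.60 to -0.10 and -0.31 to 0.34 with the conventional list, and 0.17 to 0.77, -0.15 to 0.48 and -0.10 to 0.37 with the resident list. Of the 5 genes most alike, 1, 1 and 2 were shared without the libraries that stood apart. The cause was not tested for any of these. No paired analysis was possible because the labels carry no replicate numbers; the title number as a block changed no call. Depth limits Ccl17 most, with 12 counts in its lowest library.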

Other observations

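T and NK cell genes had antibody estimates above 0 in 4 of the 5 tested, and 0 were called; 2 of them were tested without the libraries that stood apart, with 1 above 0. Ifng, which encodes interferon gamma, was at 0.896 ± 1.11 CPM with anti-TNF and 0.109 ± 0.105 CPM with isotype (SD, n = 6 each; edgeR adjusted p = 0.660), and at 0.248 ± 0.158 CPM with anti-TNF (SD, n = 4) without the 2 libraries that stood apart. Ly6c2, a marker of inflammatory monocytes, was at 26.1 ± 26.8 CPM with anti-TNF and 13.9 ± 7.36 CPM with isotype (SD, n = 6 each; edgeR adjusted p = 0.708), and at 12.2 ± 6.40 CPM with anti-TNF (SD, n = 4) without those libraries. Ccr2, the receptor of these monocytes, was at 604 ± 186 CPM with anti-TNF and 395 ± 47.1 CPM with isotype (SD, n = 6 each; edgeR adjusted p = 0.660), and at 498 ± 107 CPM with anti-TNF (SD, n = 4) without them. Without the 2 libraries that stood apart, the genes most like Ccl22 across the other 10 were Sdf2l1 (r = 0.94) and Tmed9 (0.93), genes of the endoplasmic reticulum and secretory pathway, a ranking with no test.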
